A study of Mus musculus with 36 samples.

Results

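Open chromatin was examined in 5 stretches of the mouse genome that hold genes which heart muscle cells are not best known for: the fibrillar collagen genes Col1a2 and Col3a1, the matrix genes Postn and Fn1, and the leukocyte gene Ptprc. The nuclei had been enriched for cardiomyocytes. A region was taken when it overlapped the window of a gene, given in mm9 coordinates, in any of the 9 deposited lists. The windows were chosen by gene and position, not by tag number. They run from 4420000 to 4530000 of chromosome 6 for Col1a2, from 45330000 to 45440000 of chromosome 1 for Col3a1, from 54130000 to 54230000 of chromosome 3 for Postn, from 71600000 to 71750000 of chromosome 1 for Fn1 and from 139920000 to 140110000 of chromosome 1 for Ptprc. They held 33 of the 122759 listed regions, 10 at Col1a2, 10 at Col3a1, 5 at Postn, 3 at Fn1 and 5 at Ptprc.

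The libraries were ATAC-seq libraries, in which a transposase places sequencing adapters into accessible DNA, of left ventricular nuclei from FVB/N mice. The border zone, the surviving muscle next to a myocardial infarct, was compared with the ventricle of sham-operated mice on days 4, 7 and 14 after surgery, with 1 library per condition and day and thus 6 libraries. Nuclei of day 4, from both conditions, came from mice described as Cdh5-Cre; Sun1-sfGFP/- and were enriched by a pulldown of PCM1, a protein found around cardiomyocyte nuclei. Cdh5 is a gene of endothelial cells, the labels' protocols also name a GFP sort, and which sorted fraction entered the pulldown is not stated there. Nuclei of days 7 and 14, again from both conditions, came from Myh6-MerCrMer;nTnG mice, in which tamoxifen (20 mg/kg) activates a Cre driven by the cardiomyocyte promoter of Myh6 and thereby a nuclear GFP, and 50000 nuclei per sample were sorted. For these days the labels' protocols also list mice with the Sun1/sfGFP reporter at the ROSA locus. The mice, the isolation of the nuclei and the aligner changed together between day 4 and the later days, so their effects cannot be told apart from that of time. No source used here tells whether animals were pooled. The labelled cell type was not checked against cardiomyocyte marker genes, because no mm9 annotation was used here.

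Type I and type III collagen form the fibres of scar tissue. In the heart both are made mainly by fibroblasts, which multiply and become activated after an infarct. Periostin, the product of Postn, is a matrix protein of activated fibroblasts, and fibronectin, the product of Fn1, is laid down early in wounds by several cell types. Ptprc encodes CD45, a tyrosine phosphatase on the surface of nucleated blood cells, and marks the leukocytes that enter the injured muscle. Accessible DNA at such genes is known to lie both at promoters and at distant enhancers.

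The promoters of the matrix genes with border zone-higher regions are shown here for orientation. They come from RefSeq on build GRCm38.p6, so their positions cannot be set beside the mm9 positions of the regions. An entry was matched for 4 of the 5 genes. The Col1a2 entry is chr6:4505368-4505667, the Col3a1 entry chr1:45311288-45311587, and the 2 Postn entries, for alternative starts, are chr3:54359017-54359316 and chr3:54360857-54361156, all on the plus strand with 250 bases before and 50 bases after the start. Capitals mark matches, on either strand, to CCAAT for the CCAAT box, to TATAAA for the TATA box, to CATTCC for the TEAD site and to TGANTCA for the AP-1 site.
Col1a2: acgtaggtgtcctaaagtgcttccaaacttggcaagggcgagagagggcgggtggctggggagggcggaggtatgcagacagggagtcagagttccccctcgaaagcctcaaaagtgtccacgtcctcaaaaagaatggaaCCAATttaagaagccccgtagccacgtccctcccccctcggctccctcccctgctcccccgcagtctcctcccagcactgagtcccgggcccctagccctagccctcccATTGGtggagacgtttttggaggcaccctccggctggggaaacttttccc
Col3a1: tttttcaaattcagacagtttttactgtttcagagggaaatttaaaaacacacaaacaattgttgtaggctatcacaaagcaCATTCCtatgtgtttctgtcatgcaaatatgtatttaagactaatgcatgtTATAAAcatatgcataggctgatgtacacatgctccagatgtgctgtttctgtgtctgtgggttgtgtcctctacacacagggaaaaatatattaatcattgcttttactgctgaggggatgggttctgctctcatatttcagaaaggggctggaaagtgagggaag
Postn, first start: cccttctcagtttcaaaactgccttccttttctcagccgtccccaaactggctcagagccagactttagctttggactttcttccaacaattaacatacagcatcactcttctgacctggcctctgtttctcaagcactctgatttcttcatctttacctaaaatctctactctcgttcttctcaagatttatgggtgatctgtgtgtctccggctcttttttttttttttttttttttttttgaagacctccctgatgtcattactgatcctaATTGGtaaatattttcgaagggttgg
Postn, other start: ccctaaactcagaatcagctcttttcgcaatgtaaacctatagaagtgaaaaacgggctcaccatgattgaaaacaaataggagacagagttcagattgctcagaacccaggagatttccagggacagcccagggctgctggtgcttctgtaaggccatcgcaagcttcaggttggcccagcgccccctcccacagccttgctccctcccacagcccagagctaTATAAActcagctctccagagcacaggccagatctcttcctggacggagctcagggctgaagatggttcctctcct
The Col1a2 promoter was rich in G and C, at 61.0%, and held 2 CCAAT matches, which are found at least once in 37.4% of the 32851 promoters of the table. The Col3a1 promoter had 37.7% G and C, 1 TATAAA match and 1 CATTCC match, which occur in 13.6% and 14.7% of all promoters. Of the Postn entries the first held 1 CCAAT match and the other 1 TATAAA match. TGANTCA, found in 7.81% of all promoters, was in none of these 4 windows of 300 bases. The 2 entries of Ptprc held 1 TATAAA match between them. These matches are descriptions of the letters and say nothing of binding.

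The windows were sparsely listed on day 4 and most of the signal lay on the later days. On day 4 they held 3 regions, 1 at Postn and 2 at Ptprc, and none at Col1a2, Col3a1 or Fn1. On day 7 they held 17 regions and on day 14 13. Of the 17 regions of day 7, 10 were listed as higher in the border zone and 2 as higher in sham, beside 17.5% and 22% of all 34952 listed regions of that day. Of the 13 regions of day 14, 6 were border zone-higher and 1 was sham-higher, beside 13.4% and 6.75% of all 40980 regions. Of the 3 regions of day 4, none was border zone-higher and 1 was sham-higher, beside 12.2% and 7.37% of all 46827 regions. Regions in the windows had median log2 ratios (border zone over sham) of -0.69, 1.17 and 0.78 for days 4, 7 and 14, where the medians over all listed regions were -0.09, -0.14 and 0.03.

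**Figure D1:**
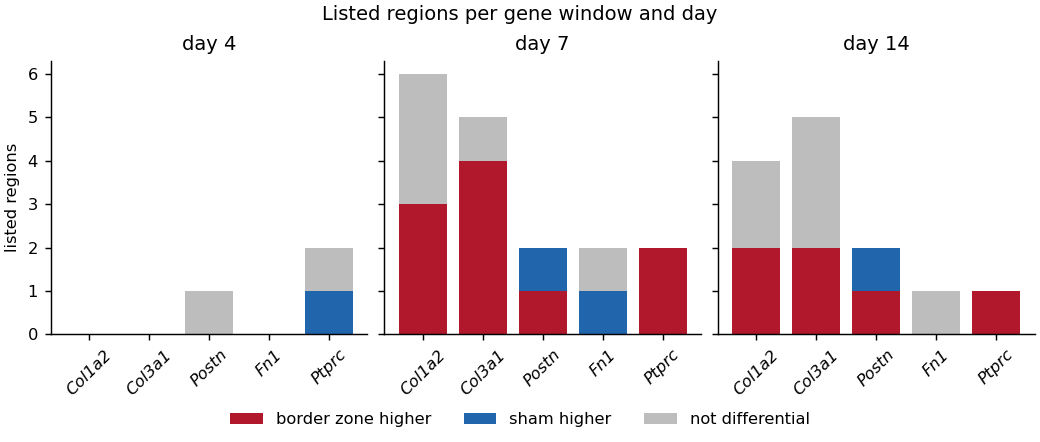
Number of listed regions (y axis) in each gene window (x axis) on days 4, 7 and 14, split by the authors' list: border zone-higher, sham-higher or not differential. On day 4 only the Postn and Ptprc windows have regions, and on day 7 the Col3a1 window has 4 border zone-higher regions of 5.

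The listing rule bears on these counts. The larger value of every listed region was at least 35, 50 and 150 tags for days 4, 7 and 14. These smallest values are read here as the listing minimum, since the sources used here give no thresholds. Under such a rule a region with fewer sham tags had to be higher in the border zone to be listed. Of the 17 regions of day 7, 10 had sham tags below that minimum, and 7 of these were border zone-higher, beside 59.8% of all such regions. Of the 13 regions of day 14, 5 had sham tags below the minimum and 4 of these were border zone-higher, beside 48%. Among regions that sham tags alone would have listed, 3 of 7 were border zone-higher and 2 of 7 sham-higher on day 7, beside 6.01% and 28% of all such regions. On day 14 these were 2 of 8 and 1 of 8, beside 4.01% and 8.58%. All 3 regions of day 4 were of this kind, and 0 of 3 border zone-higher and 1 of 3 sham-higher stood beside 4.35% and 9.03%. On days 7 and 14 the regions of the gene windows also had lower medians than all regions. Their median was 44.0 whole border zone tags and 42.0 sham tags on day 7, against 48.0 and 67.0 over all regions of that day, and 143 and 163 on day 14, against 161 and 216. The 3 regions of day 4 had medians of 49.0 and 79.0, against 68.0 and 71.0.

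**Figure D2:**
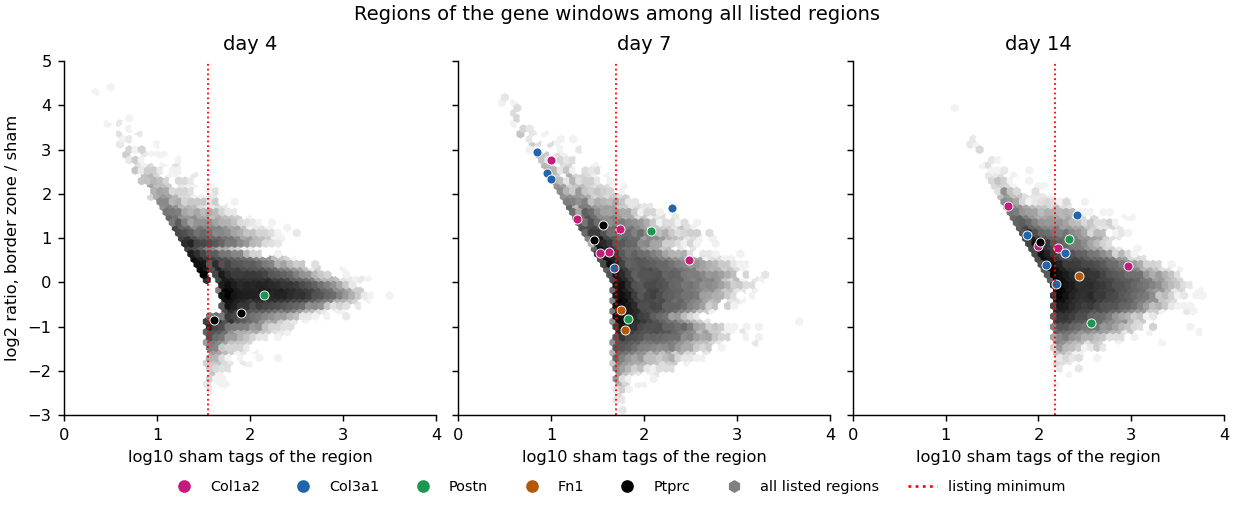
Log2 ratio of border zone to sham tags of each region (y axis) against the log10 of its sham tags (x axis) on days 4, 7 and 14, with all listed regions in grey and the regions of the gene windows as coloured points. The dotted line marks the smallest larger value that a listed region had, 35, 50 and 150 tags; left of it every listed region has a border zone value above that minimum. The Col3a1 point with 198 sham tags on day 7 lies above nearly all regions of its depth.

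Folds are ratios of the listed values, of which the border zone tags had been scaled to the sham library by the authors, and intervals are exact 95% binomial intervals of whole tags that cover counting error only. With 1 library per condition and day, differences within a day were not tested. Tags summed over a window give a first overview. At Col3a1 the border zone had 844.9 tags against 271 in sham on day 7, a ratio of 3.12 (2.70 to 3.61), and 1520 against 800 on day 14, a ratio of 1.90 (1.73 to 2.08). At Col1a2 it had 795 tags against 461 in sham on day 7, a ratio of 1.72 (1.53 to 1.95), and 1799 against 1227 on day 14, a ratio of 1.47 (1.36 to 1.59). Both collagen windows thus had more listed border zone tags on both days. The listing rule bears on this direction. The sums hold regions with sham tags below the minimum, which could be listed only with the border zone higher. A change in the share of nuclei of another cell type and a change in accessibility within cardiomyocyte nuclei cannot be told apart in such bulk libraries, and their parts in the ratios were not tested. At Postn the sums mix regions of opposite direction, and their ratio was 0.823 (0.638 to 1.06) on day 4, 1.64 (1.343 to 2.004) on day 7 and 1.06 (0.933 to 1.20) on day 14. At Fn1 the ratio was 0.559 (0.392 to 0.787) on day 7 and 1.11 (0.928 to 1.33) on day 14. At Ptprc it was 0.598 (0.439 to 0.809) on day 4, 2.24 (1.63 to 3.09) on day 7 and 1.88 (1.45 to 2.44) on day 14, from different places on day 4 than on the later days. The Ptprc sums of days 7 and 14 came only from regions with sham tags below the minimum. The Fn1 sum of day 7 came only from regions listed through sham. An exact paired permutation test over days, two-sided, could not go below p = 0.25 with 3 days or p = 0.5 with 2. It gave p = 0.75 for Postn and p = 0.5 for Ptprc over 3 days, and p = 0.5 for Col1a2, p = 0.5 for Col3a1 and p = 1.0 for Fn1 over 2 days, by exact permutation.

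**Figure D3:**
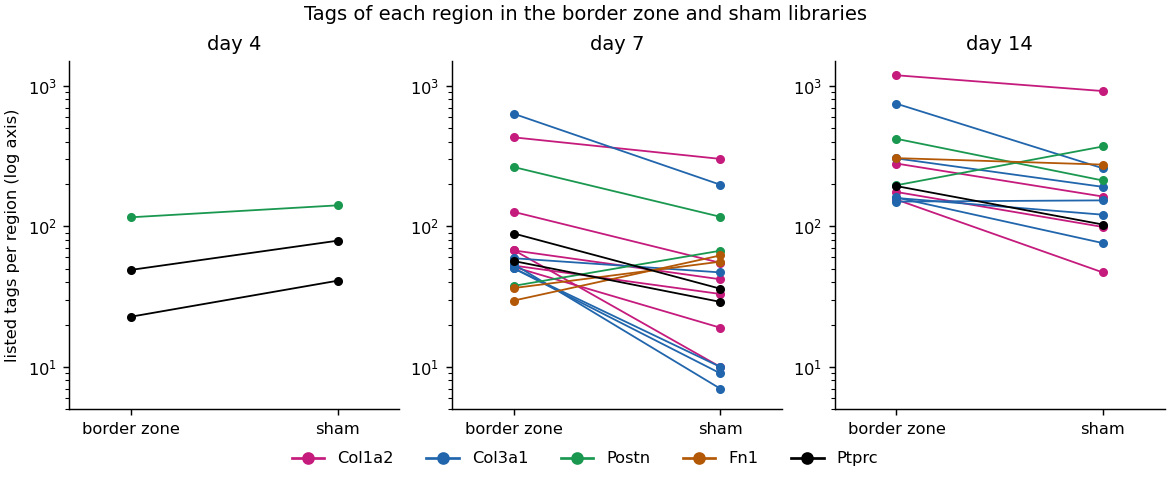
Listed tags of every region of the gene windows on a log axis, the border zone value left and the sham value right, joined by a line, on days 4, 7 and 14. All but 1 of the collagen lines are lower at their sham end, both Fn1 lines of day 7 are higher there, and at Postn 1 line is lower and 1 higher on day 7 and on day 14. A line with its sham end below the listing minimum could only have a higher border zone end. A line with its border zone end below it could only have a higher sham end.

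Col3a1 encodes the chain of type III collagen. Its leading locus, at 45410251 to 45414250 of chromosome 1, was listed on days 7 and 14. On day 7 the locus was a single region of 4 kb with 631.7 border zone tags against 198 sham tags, a ratio of 3.19 (2.70 to 3.78). On day 14 a region at 45411251 to 45413250 had 745.9 border zone tags against 259 in sham, a ratio of 2.88 (2.48 to 3.35), and the adjoining non-differential region at 45413251 to 45413750 had 304 against 191, a ratio of 1.59 (1.31 to 1.94). On day 14 the ratio was thus larger in the 2 kb from 45411251 than in the piece after it. Of the 27484 regions of day 7 that sham tags alone would have listed, 99.7% had a lower ratio than this one. The region from 45411251 stood above 99.7% of the 32212 such regions of day 14. The 3 other border zone-higher regions of day 7 rested on few sham tags. They had 50.2 tags in the border zone against 9 in sham at 45387751 to 45388750, 53.7 against 7 at 45397251 to 45398250, and 50.2 against 10 at 45415751 to 45416750, with ratios of 5.57 (2.68 to 13.0), 7.67 (3.44 to 20.1) and 5.02 (2.48 to 11.2). Their border zone values lay just above the minimum of 50 tags, and none was listed on day 14. On day 14 the region at 45332751 to 45333750 was border zone-higher, with 160.4 tags against 76 in sham, a ratio of 2.11 (1.57 to 2.86). The remaining 3 regions, 1 on day 7 and 2 on day 14, were not differential and had ratios between 0.980 and 1.31.

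Col1a2 encodes the alpha-2 chain of type I collagen. Every one of its 10 regions had a higher listed value in the border zone than in sham, and 5 of them were listed as border zone-higher. The listing fixed this direction for those with sham tags below its minimum. These had 42, 19, 10 and 33 sham tags on day 7, and 99 and 47 on day 14. The locus with the most tags was that at 4437751 to 4440750 of chromosome 6. On day 14 it was 1 region with 1189 border zone tags against 918 sham tags, a ratio of 1.29 (1.18 to 1.42), and was not differential. On day 7 it was split, and the part at 4437751 to 4439750, with 429.7 tags against 302 in sham, had a ratio of 1.42 (1.21 to 1.67) and was not differential either. The part at 4439751 to 4440750 was border zone-higher, with 127 tags against 55 in sham and a ratio of 2.30 (1.63 to 3.27).

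Further along the window lay a run of 3 adjoining 1 kb regions, which held the highest Col1a2 ratio of each day. At 4493251 to 4494250, day 7 had 67.7 border zone tags against 10 in sham, a ratio of 6.77 (3.43 to 14.9), higher than that of 97.7% of the border zone-higher regions of that day. At 4494251 to 4495250, day 14 had 155 against 47, a ratio of 3.297 (2.33 to 4.74). At 4495251 to 4496250, day 7 had 52.5 against 33, a ratio of 1.59 (0.976 to 2.61), and was not differential. These regions adjoin without overlapping, so each of these places has a value on 1 day only. The region at 4487251 to 4488750, with 51.3 against 19 on day 7, had a ratio of 2.70 (1.54 to 4.90). Like the 3 of the run, it had sham tags below the listing minimum and could be listed only with the border zone higher. The smaller locus at 4433751 to 4434750 was listed on both days. It had 67.3 border zone tags against 42 sham tags on day 7, a ratio of 1.60 (1.04 to 2.48), and 176 against 99 on day 14, a ratio of 1.77 (1.35 to 2.33), where it was listed as border zone-higher and lay just above the smallest fold of any differential region. At 4455751 to 4456250, day 14 had 279.7 against 163, a ratio of 1.72 (1.39 to 2.12), just short of that fold, and was not differential.

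**Figure D4:**
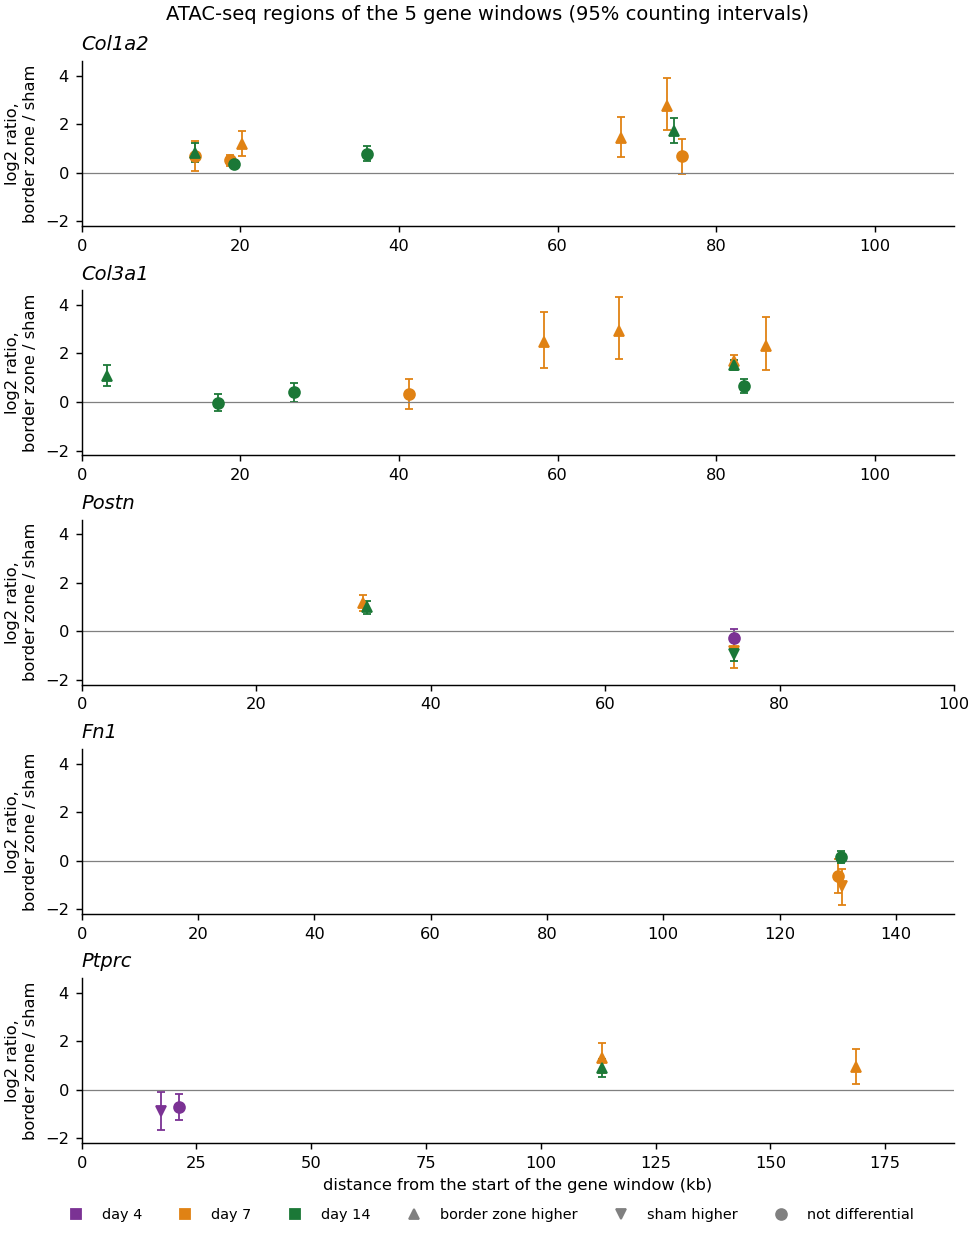
Log2 ratio of border zone to sham tags (y axis) of each region against its distance from the start of the gene window in kb (x axis), 1 panel per gene, coloured by day, with 95% counting intervals as bars and the authors' list as the symbol. All points of Col1a2 lie above 0, the Postn window holds 1 place above 0 and 1 below, and the Ptprc points of day 4 lie below 0 at places away from those of days 7 and 14. For regions with sham tags below the listing minimum, the side above 0 was fixed by the listing. For those with border zone tags below it, the side below 0 was fixed.

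Postn, the gene of the activated fibroblast protein periostin, had 2 loci that differed in opposite directions. The one at 54161251 to 54163250 of chromosome 3 was border zone-higher on both later days. It had 264 border zone tags against 117 in sham on day 7, a ratio of 2.26 (1.79 to 2.86), and on day 14, at 54162251 to 54163250, 419.6 against 212, a ratio of 1.98 (1.66 to 2.37). No region of day 4 was listed there. The other locus, at 54204251 to 54205250, was the only one of the 22 loci in the 5 windows that was listed on all 3 days. It had 116 border zone tags against 141 in sham on day 4, a ratio of 0.823 (0.638 to 1.06), and was not differential. It had 37.7 against 67 on day 7, a ratio of 0.563 (0.349 to 0.887), and 196 against 370 on day 14, a ratio of 0.530 (0.434 to 0.644), and was listed as sham-higher on both days. As CPM of all listed tags of a library, this locus had 21.2, 10.2 and 13.9 in the border zone on days 4, 7 and 14, against 23.9, 17.4 and 26.5 in sham. Its border zone share was thus below that of sham on each of the 3 days.

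Fn1, the fibronectin gene, had a single listed place in a window of 150 kb, at 71729751 to 71731250 of chromosome 1, toward the end of the window. On day 7 it was split into a sham-higher region with 29.6 border zone tags against 62 in sham, a ratio of 0.478 (0.280 to 0.789), and a non-differential one with 36.4 against 56, a ratio of 0.649 (0.394 to 1.05). On day 14 the same place was 1 non-differential region with 306 against 275, a ratio of 1.11 (0.928 to 1.33). Both regions of day 7 were listed only through sham, since their border zone values were below 50 tags. No region of the Fn1 window was border zone-higher on any day.

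Ptprc, the gene of CD45, had few listed tags. Its locus at 140032751 to 140033750 of chromosome 1 was border zone-higher on both later days, with 88.9 border zone tags against 36 in sham on day 7, a ratio of 2.47 (1.62 to 3.82), and 193 against 103 on day 14, a ratio of 1.88 (1.45 to 2.44). A further region at 140088251 to 140089250 had 56.6 against 29 on day 7, a ratio of 1.95 (1.19 to 3.25). All 3 had sham tags below the listing minimum, so they could be listed only with the border zone higher. On day 4 the listed regions lay near the start of the window. The one at 139936751 to 139937750 had 22.8 border zone tags against 41 in sham, a ratio of 0.555 (0.315 to 0.954), and was sham-higher, listed only through sham. The one at 139940751 to 139941750 had 49 against 79, a ratio of 0.620 (0.425 to 0.897), and was not differential.

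The conditions were tested over days 7 and 14 together, the days with the same isolation of nuclei. Regions of both days that overlapped were joined, which gave 26554 loci in the genome and 7 in the gene windows. edgeR's quasi-likelihood test, with day as a block and Benjamini-Hochberg adjustment over all loci, called 5 of the 7 border zone-higher and 1 sham-higher, beside 19.8% and 15.5% of all loci. The direction of 2 of the 5, at Ptprc from 140032751 and at Col1a2 from 4433751, was fixed by the listing: their sham tags were below the minimum on both days, so they were listed only where the border zone was higher. Their log2 fold changes, 1.16 and 0.85, are therefore given as a description, without a test. With only the 21842 loci whose summed sham tags reached the minimum on both days, an alternative added after the data were seen, 3 of 5 were called border zone-higher and 1 sham-higher, beside 16.2% and 13.6%. With the 15286 loci at which the summed tags of both conditions reached it, 3 of 4 were called border zone-higher and none sham-higher, beside 16.6% and 15%. The other of the 4, at Fn1, passed only by the sum of its day 7 regions, 66.0 border zone tags. Each of these regions was below the minimum in the border zone. An unadjusted p under 0.05 by edgeR was found at 3 of the 4, beside 6395 of all 15286. The largest change of the remaining 5 was at the Col3a1 locus from 45410251, with a log2 fold change of 1.54 (SE 0.19, adjusted p = 2.47e-13). The Postn locus from 54161251 rose by 1.17 on the log2 scale (SE 0.22, adjusted p = 1.89e-06) and the Col1a2 locus from 4437751 by 0.59 (SE 0.18, adjusted p = 0.0062). These 3 were the calls that held where both conditions reached the minimum. The Postn locus from 54204251 fell by 0.81 (SE 0.25, adjusted p = 0.00621). Its border zone value of day 7, 37.7 tags, was below the minimum, so on that day it could be listed only with sham higher. The listing thus fixed the direction of 1 of the 2 days that this p-value rests on. By the same test the Fn1 locus from 71729751 had a log2 fold change of -0.17 (SE 0.23, adjusted p = 0.592). On day 7 its regions were listed only through sham, which fixed the direction of that day.

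**Figure D5:**
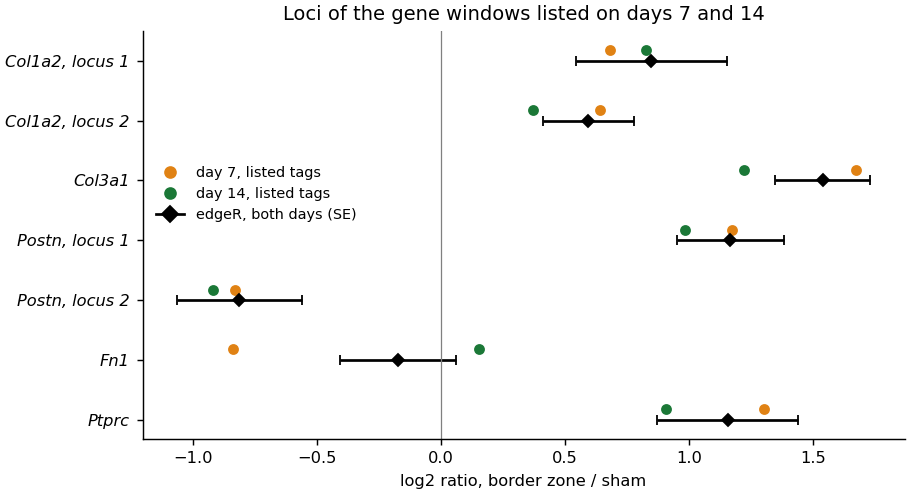
Log2 ratio of border zone to sham (x axis) of the 7 loci listed on days 7 and 14, from the listed tags of each day (circles) and from edgeR over both days (diamonds, with the SE as bars). Locus 1 and locus 2 of Col1a2 start at 4433751 and 4437751, those of Postn at 54161251 and 54204251. The circles of 6 loci lie on 1 side of 0 on both days and those of Fn1 on both sides. The listing fixed the side of Ptprc and of Col1a2 locus 1 on both days. It fixed that of Postn locus 2 and of Fn1 on day 7.

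This fit rests on 4 libraries with 1 residual degree of freedom, and its small p-values rest on the spread shared over all loci. DESeq2 with the same block kept the border zone calls of Col3a1 (adjusted p = 6.94e-07) and of Postn from 54161251 (adjusted p = 0.00277) and called none of the 7 for sham, beside 7.97% and 3.08% of all loci. With DESeq2 the adjusted p was 0.0831 for the Col1a2 locus from 4437751 and 0.17 for the sham-higher Postn locus. Separate animals are not named for the libraries, so these p-values reflect only how the libraries vary, which may be technical.

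Over all 3 days only the Postn locus from 54204251 could be tested. Its log2 fold change was -0.47 (SE 0.21) with an unadjusted p of 0.0365 by edgeR's quasi-likelihood test and an adjusted p of 0.156, where 7.64% of the 19733 loci listed on all days were called border zone-higher and 2.29% sham-higher. Without day 4 its log2 fold change was -0.67 and its adjusted p 0.0272 by the same test over these loci, of which 2131 were then called sham-higher. By that test it was -0.45 (adjusted p = 0.341) without day 7 and -0.27 (adjusted p = 0.816) without day 14. On day 7 the locus was listed only through sham, which fixed the direction of that day in each of these fits that holds it.

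The gene windows also differed from the rest of the series in how few of their places were listed on day 4. A region of day 4 was listed at 1 of the 7 loci of days 7 and 14, against 20250 of all 26554 such loci, or 76.3%. Among loci with at least as many tags as the members the share was higher still. The Col1a2 locus from 4437751 had 357 sham tags on day 7, and 95.2% of the 1537 loci with at least as many had a region on day 4. For the Col3a1 locus from 45410251, with 198 sham tags on day 7, the share was 94.7% of 4403 loci. For the Postn locus from 54161251 and the Fn1 locus, with 117 and 118 sham tags, it was 91.1% and 91.2%. The 46827 listed regions of day 4 held 5907384 sham tags in all, and the 34952 of day 7 held 3858892. The listing minimum was 35 tags on day 4 and 50 on day 7. Library depth is unknown here, and its part in the listing was not tested. A place missing from the lists of day 4 has no measured value there, and the isolation of the nuclei, the mice and the aligner also differed, so these differences cannot be told apart from that of the day. The share of 1 in 7 was not tested.

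Neither the source of the tags nor the target genes of the regions can be read from these lists. The windows also reach beyond the genes they are named for. In the RefSeq annotation of GRCm38.p6 the nearest protein-coding genes are Bet1 and Casd1 around Col1a2, Gulp1 and Col5a2 around Col3a1, Trpc4 and Supt20 around Postn, Atic and Mreg around Fn1, and Nr5a2 and Atp6v1g3 around Ptprc. Col5a2 encodes another fibrillar collagen chain. Which of the regions lie within or nearest to these neighbours was not determined, because that annotation is on another build.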

How the data were processed

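ATAC-seq was measured in 6 libraries, 1 border zone and 1 sham library on each of days 4, 7 and 14; the 30 RNA-seq samples were not analysed here. The submitters' processing notes name mm9 throughout, Bowtie2 for day 4, BWA for days 7 and 14, and bedtools. The sources used here give no tool versions, region caller, thresholds, duplicate handling or transposase offset.

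The deposited sham tags are whole-number counts per region, and so are the deposited border zone tags of the non-differential list of day 4. The other deposited border zone tags are a signal that the authors scaled to sham, as read from the values: 97.7% of 85106 are, within 0.001%, a whole number, unscaled or times either of 2 factors of the day (1.034 and 1.101 on day 4, 1.347 and 1.167 on day 7, 1.371 and 1.181 on day 14). Whole tags were recovered from them; the Col3a1 value of 4 kb was a sum of terms. Tags carry no molecular identifiers, so intervals cover counting error only, and library depth is unknown here.

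edgeR 4.0.16 (TMM, quasi-likelihood) and DESeq2 1.42.0 were run on whole tags of all loci, joined from regions overlapping by at least 1 bp, and edgeR was tested on simulated data. Day was the block: it pairs the 2 libraries of a day, for which the labels give no replicate numbers. The windows, tests and alternatives were chosen with earlier results of these data known. The text describes each of the 5 genes, each differential region and each locus past an adjusted p of 0.05, with the others added. 0 columns of unmapped samples were used. Coordinates are mm9, counted from 1, unless GRCm38.p6 is named. Not every alternative enters the text: the closing section gives their effect.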

Additional observations from a re-analysis of the deposited data

Results flagged for a closer look

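The summed ratio of border zone to sham at Ptprc lay on opposite sides of 1 on different days, each with a counting interval clear of 1. It was 0.598 on day 4 and 2.24 and 1.88 on days 7 and 14. The listing rule bears on these sides: the regions of days 7 and 14 had sham tags below the minimum and could be listed only with the border zone higher, and the sham-higher region of day 4 was listed only through sham. The difference between days was not tested, the regions of day 4 lie at other places of the window than those of the later days, and the nuclei were isolated in another way.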

How the results depend on the processing

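All 12 ratios per window and day stayed within their counting intervals with 1 median scaling factor per day, with 1 factor from listed totals, and with only regions wholly inside a window, and the number of differential regions was the same in all 12 cases with calls made again at 1 median factor. Without the region with the most tags the ratio moved to 2.30 and 1.97 at Col1a2 on days 7 and 14 and to 1.43 at Col3a1 on day 14. At Postn it turned to 0.563 on day 7 and 0.530 on day 14, as it did with only the locus listed on all 3 days. At a fold of at least 2, border zone-higher regions numbered 1 at Col1a2 on day 14, 0 at Postn on day 14, and 1 and 0 at Ptprc on days 7 and 14, and sham-higher regions 0 at Postn on days 7 and 14 and 0 at Ptprc on day 4. In the test over days 7 and 14, border zone and sham calls among the 7 loci numbered 2 and 0 with DESeq2, beside 7.97% and 3.08% of all loci. Without the replicate block (edgeR) they numbered 0 and 0, as they did over all 26554 loci. An unadjusted p under 0.05 was then found at 3 of the 7, beside 4831 of all loci. Of these 3, the Ptprc locus from 140032751 and the Col1a2 locus from 4433751 had their direction fixed by the listing. With a mean of at least 100 tags the border zone and sham calls numbered 3 and 1 of 5 loci, beside 3923 and 3686 of all 22177. They were 3 and 1 of 5 loci with summed sham tags at the listing minimum on both days. With the summed tags of both conditions at it, they were 3 and 0 of 4. Both alternatives were chosen after the data were seen. The Postn locus from 54204251 is not among these 4, and Fn1 is among them only by the sum of its day 7 regions. Joining adjoining regions too, chosen after the data were seen, gave 6 and 1 of 8 loci, beside 4945 and 4054 of all 25961. The added one was Col1a2 from 4493251 to 4496250 with a log2 fold change of 1.754. Each of its regions had sham tags below the listing minimum, which fixed its direction. Leaving out 1 day from the test over 3 days gave 0 to 1 sham calls. The 1 came without day 4, where 2131 of all 19733 loci were called sham-higher. That call was the Postn locus from 54204251, which was listed only through sham on day 7. Leaving out a day from the test over 2 days would leave no residual degrees of freedom and was not run.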
